A study of Homo sapiens with 6 samples.

Results

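A set of 10 genes of the machinery that builds spliceosomal ribonucleoproteins were followed in NCI-H460 cells after knockdown of PRMT5. They are the 7 genes of the Sm ring (SNRPB, SNRPD1, SNRPD2, SNRPD3, SNRPE, SNRPF and SNRPG), the Sm-like gene LSM4, and GEMIN2 and GEMIN5 of the SMN complex. The members were listed by gene name for their known roles, by a rule that uses no measured value although earlier results of these data were known, and they are 10 of the 58825 genes in the deposited tables. All 10 passed the filter on low counts, which left 20295 genes for testing. The members cover the complete Sm ring but only part of the SMN complex, so SMN1, SMN2 and the other partners were looked at beside them.

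NCI-H460 is a human lung cancer cell line. The cells were infected with lentivirus that carried a short hairpin RNA against GFP in the NC-shRNA group or against PRMT5 in the PRMT5-shRNA group, with 3 libraries in each, described in the study as biological replicates of stably transduced cells and made with a kit for strand-specific mRNA libraries. Both groups therefore carry an integrated hairpin. That the control hairpin targets GFP, which is not a human gene, comes from the sample labels. The study calls it a control hairpin and names no target. The study made several hairpins against PRMT5, and the labels do not say which of them these libraries carry, so an effect of the PRMT5 hairpin on other transcripts cannot be told apart from that of PRMT5 loss.

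Sm proteins form a ring of 7 different subunits around a short uridine-rich site of each spliceosomal snRNA, and this core marks the snRNP as ready for import into the nucleus. The ring does not form freely in cells. PRMT5, with WDR77 and CLNS1A, binds newly made Sm proteins and places symmetric dimethyl groups on arginines of the arginine-glycine tails of SmB, SmD1, SmD3 and LSm4, which favours their hand-over to the SMN complex. Within that complex GEMIN2 holds a partial ring of Sm proteins, and GEMIN5 recognises the snRNA to be loaded. The comparison asks whether the transcripts of these PRMT5 substrates and of their assembly partners changed when PRMT5 was reduced, and RNA-seq cannot show the methylation or the assembly itself.

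The arginine-glycine tails are the feature that separates the members with PRMT5 substrate tails from those without, so a stretch of 16 codons of each tail is shown, from the coding sequences of GENCODE release 29 on GRCh38. Capitals mark each arginine codon that is followed by a glycine codon, together with that glycine codon. The windows are exonic and lie at chr20:2463102-2463149 on the minus strand for SNRPB, chr18:21629070-21629117 on the plus strand for SNRPD1, chr22:24571918-24571965 on the plus strand for SNRPD3 and chr19:18309697-18309744 on the minus strand for LSM4. They read 5′ to 3′ along the transcript:
SNRPB: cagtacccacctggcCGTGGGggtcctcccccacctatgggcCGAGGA
SNRPD1: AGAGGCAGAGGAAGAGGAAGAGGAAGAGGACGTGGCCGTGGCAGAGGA
SNRPD3: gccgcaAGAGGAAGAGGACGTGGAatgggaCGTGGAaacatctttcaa
LSM4: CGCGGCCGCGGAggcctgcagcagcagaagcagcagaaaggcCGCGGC
The SNRPD1 window is an uninterrupted run of 8 pairs, SNRPD3 has 4, LSM4 has 3 and SNRPB has 2 that are spaced by proline-rich codons.

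Over the whole coding sequence, SNRPD1 holds 10 such codon pairs, SNRPB and LSM4 hold 8 each, and SNRPD3 holds 7. SNRPG holds 2, SNRPD2, SNRPE and SNRPF hold 1 each, and GEMIN2 holds 0. GEMIN5 also has 7, spread over 1508 codons, against 119 codons for SNRPD1. Within the ring the 3 subunits with tails thus stand clearly apart in sequence from the 4 without.

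Total estimated counts lay between 53531257 and 70518401 per library. Keratins, which mark an epithelial origin, were abundant. The 5 epithelial markers summed to 1467 to 1586 CPM (counts-per-million) in controls and 1357 to 1377 CPM in knockdowns. The marker sums in this paragraph were divided by total counts only, without TMM factors. CPM of single genes and of all other sums were scaled by edgeR's TMM factors. KRT8 had a log2 fold change of -0.23 with separate groups (unadjusted p = 0.00826, adjusted p = 0.251, edgeR). KRT18 and KRT19 had -0.23 and -0.05 with overlapping groups. EPCAM and CDH1 stood near 1 CPM, with log2 fold changes of -0.34 and 0.45. The 4 lung adenocarcinoma markers summed to at most 0.867 CPM in any library, so the markers of a lung adenocarcinoma, as the labels class the line, were close to absent. Across the control and the knockdown libraries, summed blood markers ranged over 2.74 to 3.39 and 3.46 to 4.07 CPM, with CD3E at 0 throughout, and fibroblast markers over 117 to 136 and 111 to 135 CPM. DCN made up most of the fibroblast sum, with a log2 fold change of -0.24 and overlapping groups. COL3A1 (log2 fold change 0.87) and PDGFRB (0.57) were higher in knockdowns with separate groups and adjusted p of 0.11 and 0.231 by edgeR. COL1A1 (0.10) and LUM (0.20) overlapped between groups. Summed endothelial markers were 9.74 to 10.6 CPM among controls, where VWF was at 0, and 14.6 to 18.3 CPM among knockdowns. Their part in the results was not tested.

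One control library has to be named before the results. NC-shRNA replicate 1 had the highest CPM of the 6 libraries for 9 of the 10 members, all but SNRPD1. The median deviation of the members from their mean over the 6 libraries was 0.30 on the log2 scale in this library, against 0.07 and -0.00012 in the other controls and -0.09, -0.05 and -0.09 in the knockdowns. The same library read short genes higher and long genes lower than the others did. When the tested genes were cut into 5 equal classes by summed exon length, its median deviation was 0.10 in the shortest class and -0.08 in the longest, and 8 of the 10 members lie in the 2 shortest classes. The values of the members and the counts of the lists below are therefore also given without it.

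**Figure D1:**
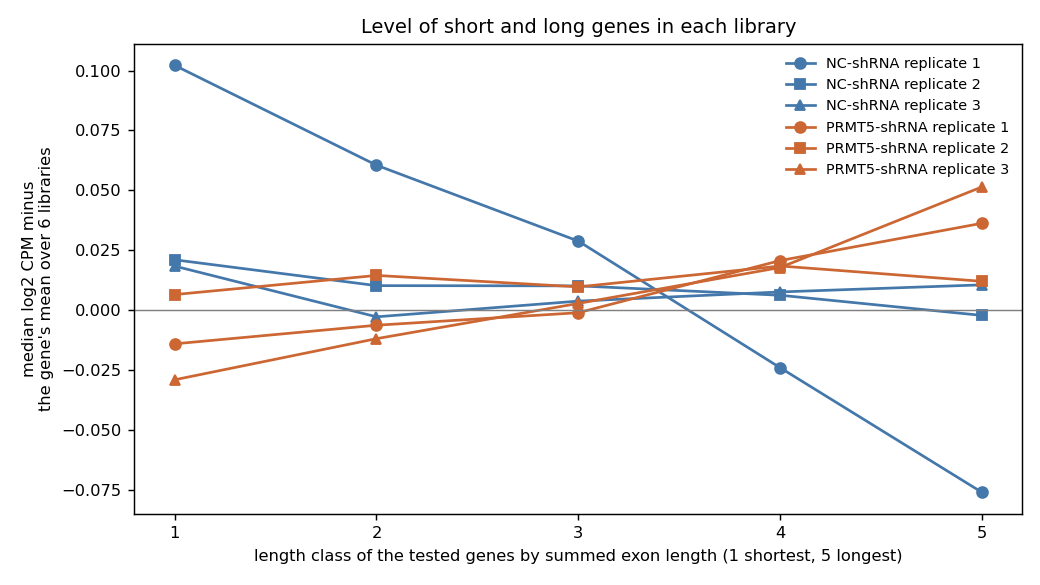
Median log2 CPM of the tested genes in each library minus each gene's mean over the 6 libraries (y axis), for 5 equal classes of genes by summed exon length (x axis, shortest to longest); blue lines are NC-shRNA and orange lines PRMT5-shRNA libraries. NC-shRNA replicate 1 runs from 0.10 in the shortest class to -0.08 in the longest, while the other 5 libraries stay between -0.03 and 0.05.

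PRMT5 transcripts were reduced as the labels state. PRMT5 stood at 143.1, 127.1 and 128.2 CPM in NC-shRNA and at 45.8, 45.6 and 38.3 CPM in PRMT5-shRNA, groups that lie far apart. The remaining level was 32.6% of control (95% interval 27.9 to 38.0%), a log2 fold change of -1.62 ± 0.09 (SE) with an adjusted p of 0.0063 (edgeR quasi-likelihood test, Benjamini-Hochberg). It was -1.56, with an adjusted p of 0.0261 by edgeR, without NC-shRNA replicate 1.

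None of the 10 members passed an adjusted p of 0.05 in that test, which called 14 of 20295 genes (0.069%). At an unadjusted p under 0.05, 3 of the 10 were lower in PRMT5-shRNA (SNRPE, SNRPF and GEMIN5), where 6.29% of all genes were lower by the same rule. None was higher, where 6.54% of all genes were. Every PRMT5-shRNA library lay below every NC-shRNA library for 4 members (SNRPE, SNRPF, GEMIN5 and SNRPB), which was so for 10.7% of all genes. Of the 10, 9 had a negative log2 fold change against 48.8% of all genes, with a median of -0.15 where the median over all genes was 0.01.

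Part of that lean came with NC-shRNA replicate 1. Without it, 5 of the 10 members had a negative log2 fold change (48.8% of 20935 genes) and their median was -0.03. SNRPE and SNRPF, 2 of 10, were still lower at an unadjusted p under 0.05, a rule that 4.49% of genes met. The same 4 members had all PRMT5-shRNA libraries below the 2 control libraries that were left, as had 15% of the genes. SNRPD2, SNRPD3, SNRPG and LSM4 turned to positive values.

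**Figure D2:**
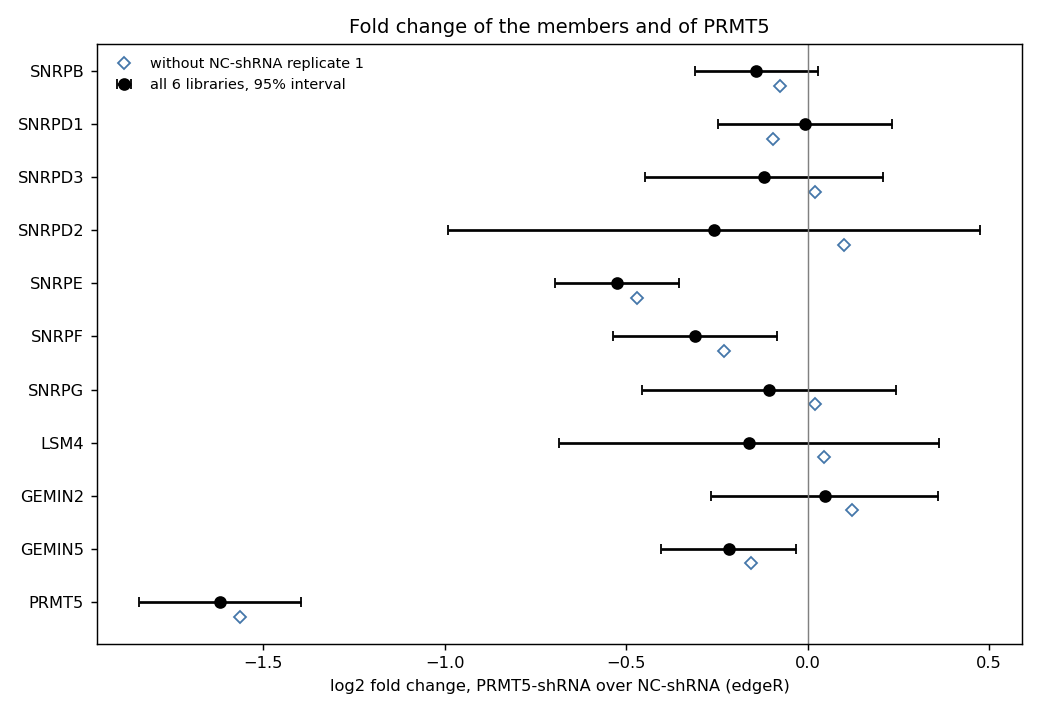
Log2 fold change of PRMT5-shRNA over NC-shRNA (x axis) for the 10 members and PRMT5; black points are the edgeR estimates from 6 libraries with 95% intervals, and open diamonds the estimates without NC-shRNA replicate 1. The intervals of SNRPE, SNRPF, GEMIN5 and PRMT5 lie below 0, and the diamonds of SNRPD2, SNRPD3, SNRPG and LSM4 lie just above 0.

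SNRPE, which encodes the SmE subunit of the ring, showed the clearest difference of the members. The gene lies at chr1:203861603-203870550 (GRCh38, plus strand) and overlaps no other annotated gene. It measured 101.0, 93.1 and 87.3 CPM in NC-shRNA and 64.7, 67.4 and 63.5 CPM in PRMT5-shRNA. The lowest control library lay well above the highest knockdown library, and the knockdown libraries hardly differed among themselves. The means were 93.8 ± 6.86 and 65.2 ± 1.99 CPM (SD, n = 3 each), so that 69.5% of the control level remained (95% interval 61.7 to 78.3%). The log2 fold change was -0.52 ± 0.07 (SE), with an unadjusted p of 0.00018 and an adjusted p of 0.102 by edgeR's quasi-likelihood test. Without NC-shRNA replicate 1 it was -0.47, with an adjusted p of 0.135.

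The SNRPE value sits near the threshold of the test, and the call depends on the tool. DESeq2 gave a log2 fold change of -0.53 ± 0.10 (SE) and an adjusted p of 4.22e-05, and edgeR's likelihood ratio test gave -0.52 and an adjusted p of 0.00474. SNRPE was the 1 member of 10 that each of them called. DESeq2 called 1.07% of genes as lower and the likelihood ratio test 0.32%. Over 21 alternative settings the log2 fold change of SNRPE kept its sign, from -0.58 to -0.45, with adjusted p from 4.22e-05 to 0.36.

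SNRPE has processed copies elsewhere in the genome that share sequence with it. Of the 50-base words of its transcript, 21.2% occur in another annotated gene, so reads can be split between them. Of 9 named copies, 2 had counts, and together they held 7.75 to 10.2% of the SNRPE count in each library. SNRPEP4, the copy with most of these counts, had a log2 fold change of -0.56 with an unadjusted p of 0.015 and an adjusted p of 0.291 (edgeR). The gene and its copies summed to 102 ± 8.01 CPM in NC-shRNA and 71.0 ± 2.42 CPM in PRMT5-shRNA, which is 69.3% of control and close to the value of the gene alone (exact two-sided permutation p = 0.10, the smallest that 3 against 3 libraries allow). The sum was 72.2% of control without NC-shRNA replicate 1.

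SNRPF, the neighbour of SmE in the ring, came next. Its gene lies at chr12:95858928-95903828 on the plus strand and overlaps AC090001.2 on the same strand and CCDC38 on the other. It measured 94.1, 84.5 and 76.0 CPM in NC-shRNA and 68.1, 73.1 and 64.1 CPM in PRMT5-shRNA. The groups do not overlap, although the closest libraries are only about 3 CPM apart. The log2 fold change was -0.31 ± 0.10 (SE), with an unadjusted p of 0.0141 and an adjusted p of 0.287 (edgeR), and 80.6% of the control level remained (95% interval 68.9 to 94.3%). Without NC-shRNA replicate 1 the log2 fold change was -0.23 with an unadjusted p of 0.0375 and an adjusted p of 0.474 in the same edgeR test.

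The other ring subunits without an arginine-glycine tail, SmD2 and SmG, varied widely between libraries. SNRPD2 (chr19:45687454-45692569, minus strand, overlapping QPCTL on the other strand) measured 168.5, 76.1 and 106.3 CPM in NC-shRNA and 88.7, 76.6 and 128.2 CPM in PRMT5-shRNA. The groups overlap almost completely, and the coefficient of variation of SNRPD2 was 40.3% and 27.6%, the highest among the members. Its log2 fold change of -0.26 had a 95% interval of -0.99 to 0.48 and an adjusted p of 0.77 (edgeR), so changes of that size in either direction could not be told from 0. It was 0.10 without NC-shRNA replicate 1.

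SNRPG (chr2:70281362-70293771, minus strand) measured 101.1, 89.4 and 68.9 CPM in NC-shRNA and 78.1, 89.6 and 73.4 CPM in PRMT5-shRNA. The knockdown libraries fell within the span of the controls, with a log2 fold change of -0.11 (95% interval -0.46 to 0.24, adjusted p = 0.805 by edgeR) and 0.02 without NC-shRNA replicate 1. SNRPG is also the member with the most shared sequence, since 22.9% of its 50-base words occur in another gene. Of its 20 named copies 6 had counts, and these came to 16.3 to 36.2% of the SNRPG count in controls and 11.1 to 15.8% in knockdowns. Gene and copies together gave 106 ± 13.7 CPM and 91.0 ± 8.25 CPM, or 85.6% of control (exact two-sided permutation p = 0.20) and 92.0% without NC-shRNA replicate 1. Whether these counts belong to SNRPG or to expressed copies was not tested, so its value is uncertain.

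The 3 ring subunits with arginine-glycine tails were SNRPB, SNRPD1 and SNRPD3. SNRPB encodes SmB and SmB′ and lies at chr20:2461634-2470853 on the minus strand, inside the span of AL049650.1, which shares 9.50% of its 50-base words. It measured 254.8, 223.9 and 222.3 CPM in NC-shRNA and 218.8, 213.9 and 202.8 CPM in PRMT5-shRNA. The groups do not overlap, but the gap between them is narrow. SNRPB had a log2 fold change of -0.14 ± 0.07 (SE; 95% interval -0.31 to 0.03), with an adjusted p of 0.453 by edgeR, and -0.08 without NC-shRNA replicate 1.

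SNRPD1, the subunit with the longest run of arginine-glycine codons, was the member that differed least. Its gene spans chr18:21612267-21633524 on the plus strand. It measured 68.1, 83.0 and 82.5 CPM in NC-shRNA and 72.7, 84.3 and 75.4 CPM in PRMT5-shRNA. The means of 77.9 ± 8.48 and 77.5 ± 6.09 CPM (SD, n = 3 each) left 99.5% of control, with a 95% interval of 84.3 to 117.4%. Its log2 fold change of -0.01 (adjusted p = 0.984, edgeR) was of either sign across the alternatives, and -0.10 without NC-shRNA replicate 1.

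SNRPD3 lies at chr22:24555503-24609980 on the plus strand. The gene overlaps GGT1 and AP000356.1 on the same strand and GUCD1 and LRRC75B on the other. It measured 208.7, 139.4 and 179.5 CPM in NC-shRNA and 156.8, 167.7 and 160.9 CPM in PRMT5-shRNA. All knockdown libraries lay between the lowest and the highest control. SNRPD3 had a log2 fold change of -0.12 (95% interval -0.45 to 0.21, adjusted p = 0.761 by edgeR), and 0.02 without NC-shRNA replicate 1.

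LSM4 belongs to the Sm-like rings that bind U6 snRNA in the nucleus and decapping substrates in the cytoplasm, and its protein carries the fourth tail. The gene lies at chr19:18306230-18323274 on the minus strand. It measured 115.9, 81.2 and 77.0 CPM in NC-shRNA and 95.8, 59.4 and 89.9 CPM in PRMT5-shRNA. Each group has 1 library apart from its other 2, a high one among the controls and a low one among the knockdowns. The log2 fold change of -0.16 had a 95% interval of -0.69 to 0.36 and an adjusted p of 0.799 (edgeR), and leaving out either of these libraries made it positive (0.05 and 0.02).

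Of the 4 members with arginine-glycine tails, 0 were past an unadjusted p of 0.05, and of the 4 ring subunits without a tail 2 were, where 6.29% of all genes were lower and 6.54% higher by that rule. A count of 0 among 4 genes is close to such shares, and with so few genes no test of that difference was made.

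**Figure D3:**
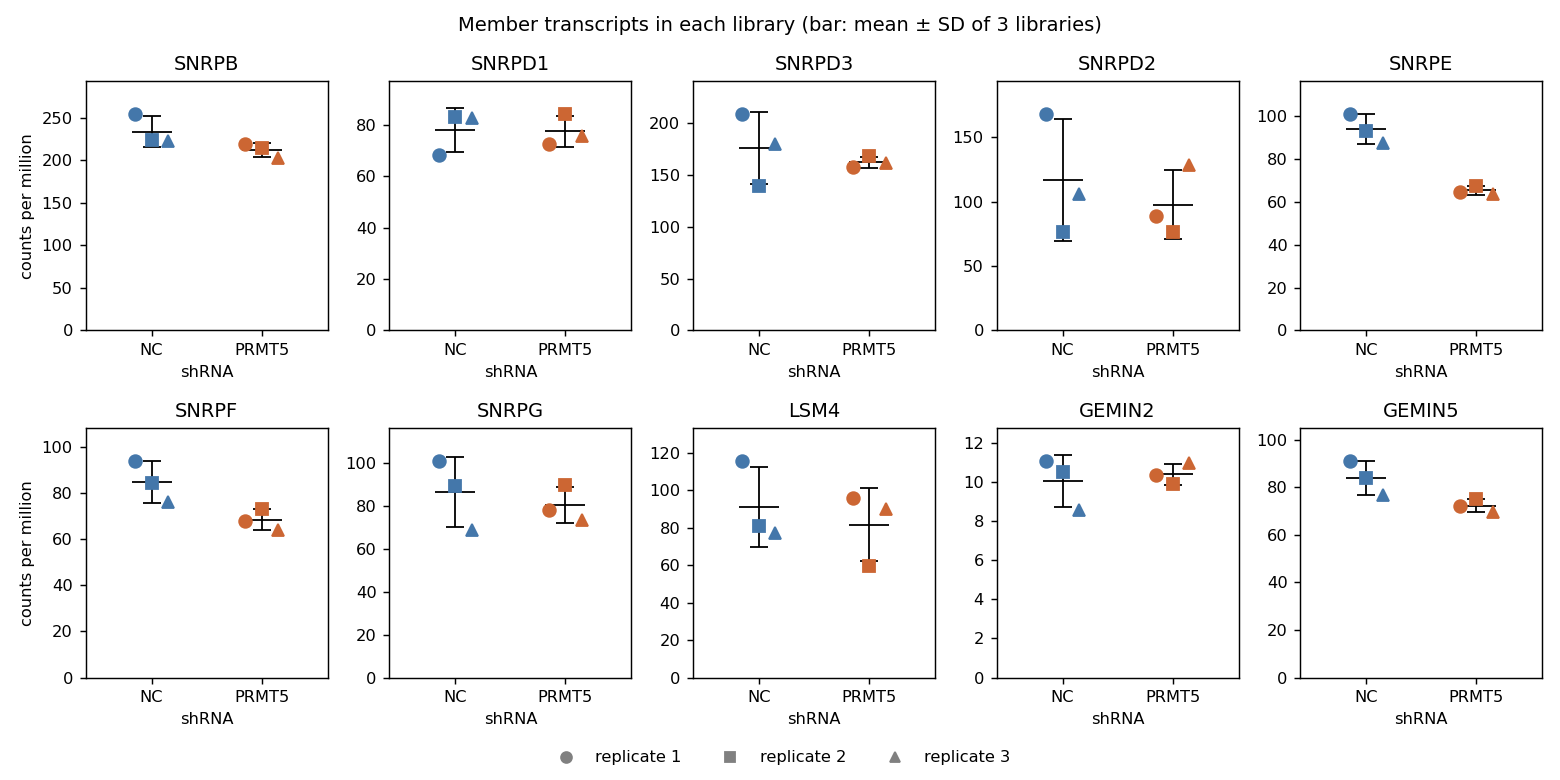
CPM of each member (y axes, each starting at 0) in the 3 NC-shRNA (blue) and 3 PRMT5-shRNA (orange) libraries; the symbol gives the replicate number, and bars the mean ± SD of 3 libraries. The groups are separate for SNRPE, SNRPF, GEMIN5 and SNRPB and overlap for the other 6 members, and the NC-shRNA circle is the highest point in 9 of the 10 panels.

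The ring needs its protein subunits in equal numbers, so the share of each transcript in the ring was taken from FPKM, the deposited fragment density per transcript length, scaled to library size. Transcript shares do not give those of the proteins, and they depend on the length set against the reads. By CPM, SNRPD1 at 77.9 in NC-shRNA was close to SNRPF at 84.8 and SNRPG at 86.5. SNRPB made up 41.9 ± 2.43% of the summed FPKM of the 7 genes in NC-shRNA and SNRPD1 3.73 ± 0.85%, where an equal share would be 14.3%. In PRMT5-shRNA these shares were 43.3 ± 2.19% and 4.16 ± 0.33%. The share of SNRPE was 9.55, 11.2 and 10.3% in NC-shRNA and 8.20, 8.47 and 7.86% in PRMT5-shRNA, again without overlap, and the means were 10.3 ± 0.84% and 8.18 ± 0.31%. Leaving NC-shRNA replicate 1 out, the control shares were 43.3% for SNRPB, 4.22% for SNRPD1 and 10.7% for SNRPE. Summed over the ring, the 7 genes reached 996.2, 789.4 and 822.8 CPM in NC-shRNA and 747.9, 772.6 and 768.3 CPM in PRMT5-shRNA. The sum was thus 87.7% of control (exact two-sided permutation p = 0.10, the smallest possible), but NC-shRNA replicate 1 stood well above the rest, and without it the sum was 94.6% of control.

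GEMIN5, the SMN complex subunit that recognises snRNA, lies at chr5:154887416-154938209 on the minus strand and overlaps no other gene. It measured 91.2, 84.2 and 76.9 CPM in NC-shRNA and 72.0, 75.1 and 69.9 CPM in PRMT5-shRNA. The groups are separate by less than 2 CPM at their closest. The log2 fold change was -0.22 ± 0.08 (SE), with an unadjusted p of 0.028 and an adjusted p of 0.328 (edgeR), which leaves 86.0% of control (95% interval 75.6 to 97.8%). Without NC-shRNA replicate 1 it was -0.16 with an unadjusted p of 0.0719 and an adjusted p of 0.536 by edgeR, so GEMIN5 then no longer met the looser rule.

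GEMIN2, which binds SMN and cradles Sm proteins, had the lowest level of the members. The gene lies at chr14:39114223-39136973 on the plus strand. It measured 11.1, 10.5 and 8.58 CPM in NC-shRNA and 10.4, 9.88 and 10.9 CPM in PRMT5-shRNA. The groups overlap, and its log2 fold change of 0.05 (95% interval -0.27 to 0.36, adjusted p = 0.915 by edgeR) was the only positive one among the members. It was 0.12 without NC-shRNA replicate 1.

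Per length, the members covered a wide range of levels. Mean FPKM in NC-shRNA fell from 153 ± 8.94 for SNRPB through 60.7 ± 23.3 for SNRPD2, 40.9 ± 6.88 for SNRPG, 37.7 ± 1.92 for SNRPE and 37.6 ± 7.05 for SNRPD3 to 25.2 ± 5.33 for LSM4 and 23.3 ± 1.98 for SNRPF (SD, n = 3 each). Below these stood SNRPD1 at 13.4 ± 1.71, GEMIN5 at 12.5 ± 0.79 and GEMIN2 at 3.04 ± 0.34 FPKM. The highest and the lowest were 50.4-fold apart. Neighbours in this order overlapped in their libraries except at 3 steps, between SNRPB and SNRPD2, between SNRPF and SNRPD1, and between GEMIN5 and GEMIN2.

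The order depends on the length that is set against the reads. SNRPD1 has 4909 bases of annotated exon and SNRPE 1474, and similar CPM of 77.9 and 93.8 stood beside FPKM of 13.4 and 37.7. Per kb of annotated exon the CPM were 15.9 and 63.6. For SNRPD1 this is near the FPKM, as for the other members such as SNRPB (183 beside 153) and GEMIN5 (14.9 beside 12.5). The exceptions are SNRPE and SNRPD3 (69.1 beside 37.6). For these genes the annotated lengths alone do not give the deposited FPKM, and their ring shares carry the same limit. When CPM was divided by the summed exon length instead, 8 of the 10 ranks stayed and SNRPG and SNRPD3 changed places. With NC-shRNA replicate 1 left out, 8 of the 10 ranks of FPKM also stayed and LSM4 and SNRPF changed places. SNRPE kept its separation on the FPKM scale, with 39.8, 37.5 and 35.9 FPKM in NC-shRNA and 27.2, 28.1 and 26.8 FPKM in PRMT5-shRNA.

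**Figure D4:**
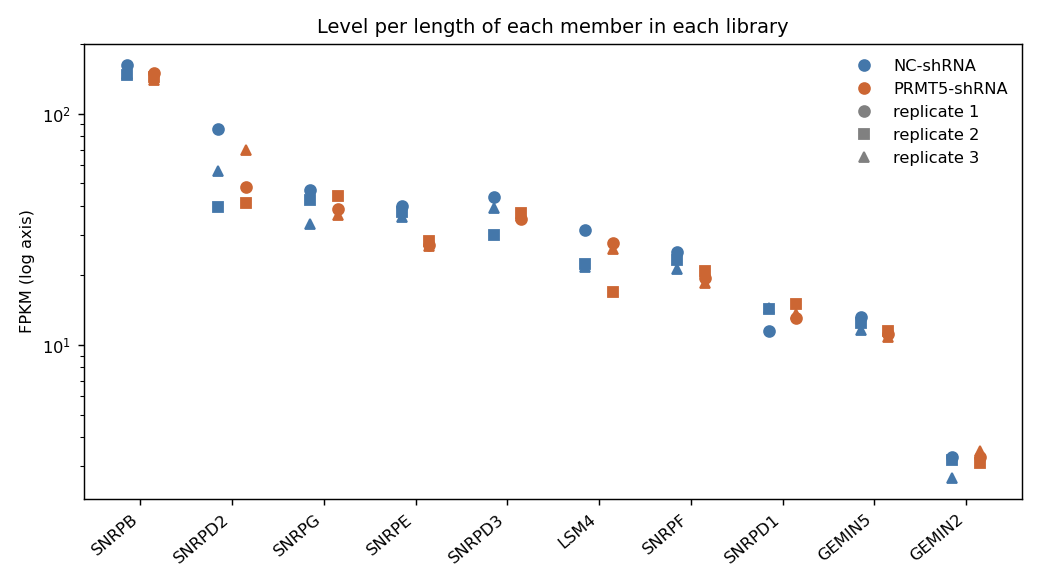
FPKM (y axis, log scale) of each member in every library, ordered by the NC-shRNA mean; blue is NC-shRNA, orange PRMT5-shRNA, and the symbol gives the replicate number. SNRPB stands alone at the top near 153 FPKM and GEMIN2 alone at the bottom near 3 FPKM, and SNRPD2 and LSM4 spread most within a group.

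The partners of the members were counted by lists of known genes. Of the 10 SMN complex genes, members included, 2 were lower and 0 higher at an unadjusted p under 0.05, 7 had a negative log2 fold change and the median was -0.19, where 6.29%, 6.54% and 48.8% of all genes met these rules. The lower ones were GEMIN5 and STRAP, the latter a WD-repeat subunit that joins the complex through GEMIN7, at 244 ± 10.8 CPM in NC-shRNA and 196 ± 28.6 CPM in PRMT5-shRNA (log2 fold change -0.31, adjusted p = 0.319, edgeR). Without NC-shRNA replicate 1, 0 of these 10 genes were lower by that rule, 7 were negative and the median was -0.11. In that fit 4.49% of genes were lower and 48.8% negative, and a count of 0 among 10 is close to the former share.

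SMN itself is encoded by SMN1 and SMN2, near-identical copies whose reads can be exchanged, so they were summed. They reached 129.0, 129.4 and 131.9 CPM in NC-shRNA and 137.1, 123.0 and 124.2 CPM in PRMT5-shRNA, and the exact two-sided permutation p was 0.70. The sum lay at 98.5% of control, and at 98.1% without NC-shRNA replicate 1. Taken singly, SMN1 had a log2 fold change of 0.10 and SMN2 of -0.19, both with overlapping groups.

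The remaining subunits overlapped between groups. The helicase gene DDX20 had a log2 fold change of -0.47 with a 95% interval of -1.28 to 0.34, GEMIN6 of -0.27, GEMIN7 of -0.18, GEMIN4 of -0.07 and GEMIN8 of 0.03. Their adjusted p values were all above 0.4 in edgeR's test.

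The methylosome list holds PRMT5, its cofactors and PRMT7, another arginine methyltransferase. Besides PRMT5, CLNS1A, the chaperone that presents Sm proteins to PRMT5, was lower at the looser rule, with 143 ± 3.58 CPM in NC-shRNA and 128 ± 5.23 CPM in PRMT5-shRNA (log2 fold change -0.15, unadjusted p = 0.0318, adjusted p = 0.34, edgeR). WDR77, the obligate partner of PRMT5, had a log2 fold change of -0.25 with overlapping groups (adjusted p = 0.429, edgeR). RIOK1 at -0.05, COPRS at -0.14 and PRMT7 at -0.08 also overlapped. All 6 genes of the list were thus negative, where 48.8% of all genes were. At the looser rule 2 of the 6, PRMT5 and CLNS1A, were lower, against 6.29% of all genes. Of the 6, 1, PRMT5, passed the adjusted threshold, as did 0.069% of all genes. PRMT5 is the target of the hairpin, so its place in these counts was set by the design. When NC-shRNA replicate 1 was left out, 5 of the 6 were negative, where 48.8% of genes were. The 1 gene then lower at the looser rule was PRMT5 itself, where 4.49% of genes were lower.

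Of the 10 Sm-like genes tested, with LSM4 among them, 2 were lower at an unadjusted p under 0.05 and 0 higher, against 6.29% and 6.54% of all genes. Their median was -0.16, and without NC-shRNA replicate 1 it was -0.02, with 1 lower gene of 10, where 4.49% of genes were lower. LSM5 and LSM3, subunits of both LSm rings, were the lower ones with log2 fold changes of -0.27 each (adjusted p = 0.291 and 0.361, edgeR). SNRPN, the paralog of SNRPB from an imprinted locus, had 94.0 ± 14.8 and 98.9 ± 5.58 CPM, and SNURF of the same locus was low and variable at 6.73 ± 5.80 and 4.80 ± 4.83 CPM. Both overlapped between groups.

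The protein genes of the finished major spliceosomal snRNPs all leaned to one side. All 22 genes of this list had a negative log2 fold change, with a median of -0.16 and the most negative at -0.33. At an unadjusted p under 0.05, 8 of the 22 were lower and 0 higher, and for 13 of them every PRMT5-shRNA library lay below every NC-shRNA library. Over all genes 48.8% were negative, 6.29% lower, 6.54% higher and 10.7% separate in that way. None passed an adjusted p of 0.05, the smallest being 0.212 by edgeR. The 3 with the smallest p and separate groups were DDX23 and PRPF6, which act in the tri-snRNP, and SNRPA1 of the U2 snRNP, with log2 fold changes of -0.31, -0.27 and -0.30.

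Without NC-shRNA replicate 1, 21 of the 22 genes had negative values and the median was -0.14, where 48.8% of genes were negative. Those lower at an unadjusted p under 0.05 went from 8 to 4, where 4.49% of genes were lower. For 15 of the 22, every PRMT5-shRNA library lay below the remaining control libraries, as for 15% of genes. After a correction for gene length all 22 were negative and 9 were lower by that rule. By limma on log2(FPKM + 1) 20 were negative and 4 lower, and by edgeR with total counts only 21 and 4. In these fits, in that order, the list medians were -0.17, -0.09 and -0.11, and the medians over all genes -0.01, 0.04 and 0.06. The 7 minor snRNP genes were 3 negative and 4 positive with a median of 0.02, and SNRNP25 was the 1 lower gene at that rule (log2 fold change -0.31, adjusted p = 0.361, edgeR). The minor snRNP genes had a median of 0.06 and 0 lower genes without NC-shRNA replicate 1, where 4.49% of genes were lower. No test of the difference between the lists was made.

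Genes that move snRNAs were mostly negative, and those that make them went both ways. Of 8 snRNA export and import genes 7 had a negative log2 fold change, where 48.8% of all genes had, and their median was -0.06. At the looser rule 1 of the 8 was lower, against 6.29% of all genes. It was NCBP1 of the cap-binding complex, with 135 ± 1.76 and 117 ± 3.49 CPM (log2 fold change -0.21, unadjusted p = 0.00605, adjusted p = 0.233, edgeR). Of the 5 genes of the snRNA activating complex, 3 were negative and 0 were past that rule in either direction, where 6.29% and 6.54% of all genes were lower and higher. Their median was -0.04, with single values up to 0.33. These lists had 1 and 0 lower genes, 6 and 3 negative ones, and medians of -0.03 and -0.05, without NC-shRNA replicate 1. In that fit 4.49% of genes were lower and 48.8% negative.

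**Figure D5:**
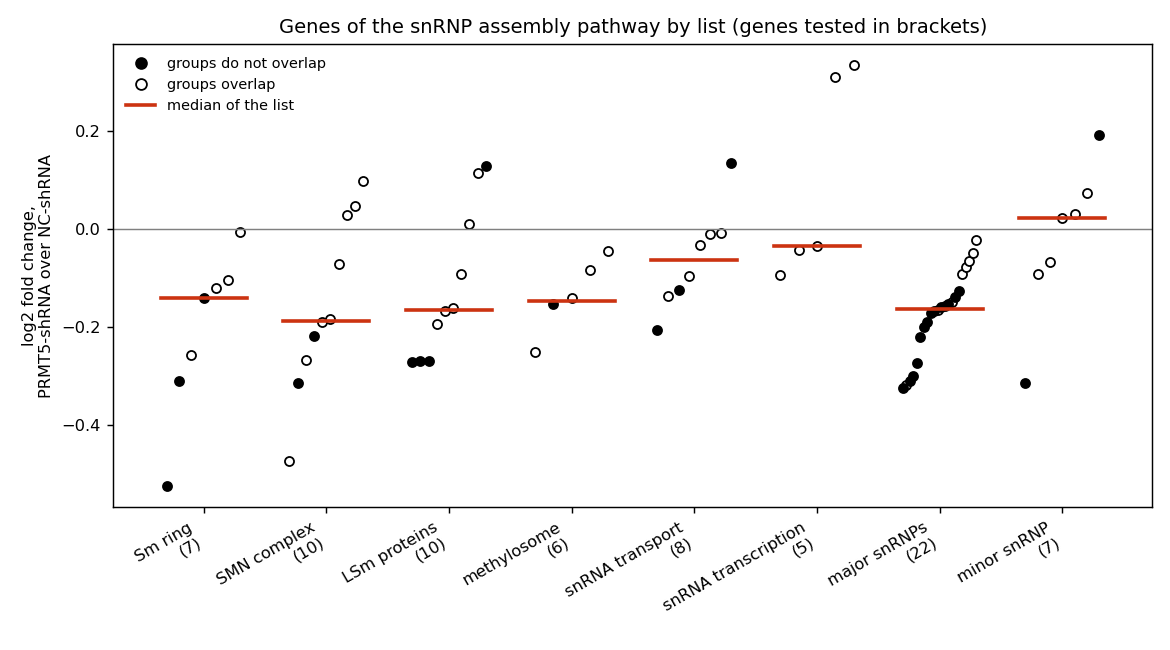
Log2 fold change of PRMT5-shRNA over NC-shRNA (y axis) for each tested gene of 8 lists (x axis, genes tested in brackets); filled points have groups that do not overlap, and red lines are list medians. PRMT5 itself, at -1.62, is not drawn but counts in the methylosome median; all 22 major snRNP genes lie below 0, with a median of -0.16.

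Over the 6 libraries, the genes whose pattern was most like the mean pattern of the ring were ribosomal protein genes. RPS6, RPL36A and RPL34 had Pearson's r of 0.997, 0.997 and 0.996 to it, members left out, and 721 of 20285 genes were over 0.9. These are descriptions over 6 libraries that share depth and composition, among them the high NC-shRNA replicate 1.

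Gene length moved with the fold changes over the whole table. Across 20221 genes the Spearman correlation of log2 fold change with exon length was 0.12, which is across genes and not independent replicates, and the class with the shortest exons had a median log2 fold change of -0.07 against 0.06 in the class with the longest. With length corrected in the fit, the median of the members was -0.13, and the same counts of 3 lower and 0 higher at an unadjusted p under 0.05 were found. SNRPE then had a log2 fold change of -0.49 and an adjusted p of 0.0675 by edgeR.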

How the data were processed

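RNA-seq of NCI-H460 cells was analysed in 6 libraries, 3 per group, grouped by the treatment named in the sample labels. Per the labels' processing notes the authors used cutadapt 1.9, HISAT2 2.0.4 and StringTie 1.3.4d with GRCh38; the methods write the reference as a mouse build name. The authors deposited estimated counts per gene, already whole numbers and not normalized, and FPKM, normalized for length and library size. Low counts gathered at multiples of 4, so a count is not a fragment; the methods name a stranded mRNA library kit, but whether counting used strand, and how shared reads were assigned, was not given in the sources used here.

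Counts were scaled by TMM, filtered with filterByExpr and tested with edgeR 4.0.16 (quasi-likelihood, Benjamini-Hochberg over 20295 genes) in R 4.3.3; limma 3.58.1 and DESeq2 1.42.0 served as alternatives, and the scripts were tested on simulated data. Standard errors were derived from the F statistic. Summed values were compared by two-sided exact permutation over libraries, with 0.10 as its smallest p. Between any pair of libraries the chi-square per degree of freedom was 42.2 or more, so none was taken as a duplicate. Exons, overlaps and coding sequences came from GENCODE release 29, which held 58552 of 58825 gene identifiers. Members and lists were chosen with earlier results of these data known. Named genes are the members, PRMT5, all tested genes of the SMN complex, methylosome and paralog lists, up to 3 genes per other pathway list with an unadjusted p under 0.05 and no overlap (smallest p first), and the 3 genes most like the ring. Marker genes, pseudogene copies and overlapping genes are named where a value or a read assignment rests on them.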

Additional observations from a re-analysis of the deposited data

How the results depend on the processing

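None of the members was called by the quasi-likelihood test or by limma under any alternative, and 2 to 3 of them were lower at an unadjusted p under 0.05 under every one, while DESeq2 and edgeR's likelihood ratio test each called 1 member, SNRPE; the cause was not tested. Over the whole table the main test called 4 lower and 10 higher genes. DESeq2 called 172 lower and 241 higher genes, the likelihood ratio test 65 and 119, and an adjusted p under 0.1 gave 12 and 21. Without its filter, limma on log2(FPKM + 1) called 1 higher gene. Leaving out each library in turn gave 3 to 10 lower and 4 to 16 higher genes, and a median of the members from -0.26 to -0.027, the latter without NC-shRNA replicate 1. The log2 fold change of SNRPD1, close to 0, turned positive at 0.040 with total counts only, 0.052 by limma at a pseudocount of 1 whether filtered or not, and 0.056 at a pseudocount of 0.1. With single libraries left out it ranged from -0.096 to 0.040, SNRPD3 from -0.26 to 0.021, SNRPD2 from -0.50 to 0.10, SNRPG from -0.25 to 0.021, LSM4 from -0.29 to 0.045 and GEMIN2 from -0.058 to 0.12. Dividing CPM by exon length kept 8 of 10 ranks of level. SNRPE, SNRPF, GEMIN5 and SNRPB stayed negative under all 21 alternatives. The lower major snRNP genes numbered from 3 to 12 over the alternatives, a repeat added after the data were seen.

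The labels number replicates 1 to 3 in both groups, but nothing says that a number marks a shared culture, and the deviations of same-numbered libraries correlated at -0.00055, -0.05 and 0.06. In the fit with a replicate block, 0 lower and 0 higher genes were called over the whole table, with 2382 at an unadjusted p under 0.05, and likewise 0 and 0 with block and length correction, with 2473. PRMT5 then had a log2 fold change of -1.62 and an adjusted p of 0.144, and SNRPE of -0.52 and 0.36 (edgeR). With 3 libraries a group, differences as small as those of most members are within their intervals.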
